A study of Homo sapiens with 8 samples.

Results

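The 37 genes described here encode subunits of RNA polymerase II and the general factors that place it on promoters and carry it into elongation. They were chosen by symbol, and each was given the mean log2 stability ratio of its RefSeq accessions in the authors' deposited table. All 37 had at least 1 accession there, 40 in all, among the 19468 genes of that table that could be named. RNA polymerase II transcribes the protein-coding genes of the nucleus. Its catalytic core is built from specific subunits and from small subunits that it shares with polymerases I and III. TBP, TFIIA and TFIIB mark the start site, TFIIF and TFIIE bring in and complete the complex, TFIIH opens the DNA and phosphorylates the tail of the largest subunit, and P-TEFb, DSIF and TFIIS act on the elongating enzyme. Alpha-amanitin binds the largest polymerase II subunit and blocks elongation, and long exposure is known to deplete that subunit as a protein. The transcripts described here are themselves made by the enzyme that the drug blocks.

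The experiment used MDA-LM2, a lung-metastatic derivative of the human breast cancer line MDA-MB-231. Cells carried a TARBP2 siRNA (siTARBP2-1 or siTARBP2-2) or a control siRNA (siControl-1 or siControl-2), and alpha-amanitin (10 µM) followed 48 h after transfection. Total RNA was taken after 18 h in the drug or, untreated, at 0 h. The 4 groups (knock-down at 0 h and at 18 h, control at 0 h and at 18 h) had 2 BeadChip arrays each, with 1 TARBP2 siRNA per knock-down array. The series text calls the comparison cells mock-transfected, whereas the sample titles call them siControl, and the 18 h of drug and the 18 h of culture cannot be told apart. TARBP2 binds structured, double-stranded RNA and works with Dicer in microRNA processing. The knock-down itself could not be read here, since the array tables carry probe identifiers without gene names. For the same reason the marker genes of the cell line could not be checked, and no member has a level per array. Each member value is the authors' own ratio, siTARBP2 over siControl, with no replicate, no error and no test. For TARBP2 itself the log2 ratios were -0.12 and 0.12 on separate accessions of the authors' deposited table, which concern its stability and not its level.

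Promoter windows are shown for 5 genes: GTF2B, the member with the highest ratio, ERCC3 and GTF2F1, which also had ratios above 1.25-fold, POLR2A, which encodes the catalytic subunit that alpha-amanitin binds, and GTF2H5, the member with the lowest ratio. ERCC3 and GTF2F1 were not next in rank, since GTF2H2, for example, was higher at 0.45. Both hold the ETS-type letters defined below, as did 4 of the 9 members above 1.25-fold with a window and 8 of the 19 between the thresholds. Each line holds the 120 bases just before the RefSeq start, 5′ to 3′ on the gene's strand, from GRCh38.p14. Capitals mark exact matches, on either strand, to 6 motifs: TATAAA for the core promoter box, CCAAT for the NF-Y site, GGGCGG for the Sp1 site, CCGGAAG for an ETS-type site, GCGCATGC for the NRF1 site and CACGTG for the E-box. The GTF2B window is chr1:88891568-88891687 on the minus strand, that of ERCC3 is chr2:127294145-127294264 on the minus strand, and that of GTF2F1 is chr19:6393165-6393284 on the minus strand. POLR2A lies on the plus strand with its window at chr17:7484246-7484365, and GTF2H5 on the plus strand with its window at chr6:158168230-158168349.
GTF2B: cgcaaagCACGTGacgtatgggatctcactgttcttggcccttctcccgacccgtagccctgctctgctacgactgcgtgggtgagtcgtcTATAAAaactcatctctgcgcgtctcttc
ERCC3: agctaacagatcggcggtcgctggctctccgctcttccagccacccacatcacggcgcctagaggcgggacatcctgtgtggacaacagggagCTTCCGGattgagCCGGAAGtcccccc
GTF2F1: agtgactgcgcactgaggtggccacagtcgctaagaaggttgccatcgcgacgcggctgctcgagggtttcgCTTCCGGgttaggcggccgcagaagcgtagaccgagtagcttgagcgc
POLR2A: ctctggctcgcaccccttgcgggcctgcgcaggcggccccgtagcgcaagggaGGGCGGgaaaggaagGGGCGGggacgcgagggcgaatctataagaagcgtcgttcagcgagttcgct
GTF2H5: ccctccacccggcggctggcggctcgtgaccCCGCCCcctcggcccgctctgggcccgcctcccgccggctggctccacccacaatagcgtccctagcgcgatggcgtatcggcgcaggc

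Of the motifs searched, the ETS-type, NRF1, E-box and Sp1 letters were each more frequent in member windows than in any of the sets beside them. For the Sp1 letters the excess over the wider transcription windows was small. RefSeq windows were found for 31 of the 37 genes, 39 windows in all, since some genes have 2 starts whose windows may overlap. The sets beside them were the 182 windows of the wider transcription genes described further on, 22199 windows of protein-coding genes and all 35116 windows. In the 250 bases before the start, CCGGAAG or its reverse complement was present in 14 of the 39 member windows (35.9%), against 20.3% of wider transcription windows, 10.7% of protein-coding windows and 8.52% of all windows. ETS-type sites of this kind are a known feature of housekeeping promoters. GTF2B was the 1 member with TATAAA, the sequence that TBP binds, with its first base at position -29 from the start. That is 2.56% of member windows, against 3.85% of wider transcription windows, 9.0% of protein-coding windows and 10.7% of all windows. CCAAT was present in 15.4% of member windows, against 32.4% of wider transcription windows, 32.7% of protein-coding windows and 32.0% of all windows. GGGCGG was present in 61.5% of member windows, close to the 59.9% of wider transcription windows, against 53.7% of protein-coding windows and 42.6% of all windows. GCGCATGC was present in 10.3% of member windows, against 5.49% of wider transcription, 3.26% of protein-coding and 2.63% of all windows. The member share rests on 4 windows of 3 genes, and the overlapping POLR2F windows hold the same site. CACGTG was present in 17.9% of member windows, against 9.89% of wider transcription, 7.37% of protein-coding and 6.34% of all windows. Here the member share rests on 7 windows of 5 genes, and the overlapping CDK7 windows hold the same site. The median GC content was 59.6% in member windows, against 62.2% in wider transcription windows, 62.0% in protein-coding windows and 58.0% in all windows. Of the members with a window, 4 of the 9 with ratios above 1.25-fold held the ETS-type letters (ERCC3, GTF2F1, GTF2H1 and GTF2H2), against 8 of the 19 between the thresholds and 1 of the 3 below 0.8-fold. These are matches of letters in reference sequence and were not measured in these cells.

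As a group, transcripts of the polymerase II machinery had higher stability ratios than the genes of the table at large, with exceptions in both directions. Their median in the authors' deposited table was 0.18 on the log2 scale (1.13-fold), beside 0.026 over all 19468 genes. A gene is called above when its mean ratio exceeds 1.25-fold (log2 0.322), the value at which the authors class a transcript as stabilized by knock-down, and below when it is under 0.8-fold. By the authors' deposited table, 11 of the 37 members (29.7%) were above, where 8.76% of all genes were, and 3 members (8.11%) were below, where 5.39% of all genes were. The remaining 23 members lay between the thresholds. A ratio above 0 was listed for 28 of the 37 members (75.7%) in the authors' deposited table and for 55.3% of all genes. In the same values of the authors' deposited table, 19 members (51.4%) exceeded the upper quartile of all genes and 6 members (16.2%) were under the lower quartile. The members' values spread about as widely as those of all genes in the authors' deposited table, with an SD of 0.24 for members and 0.223 for all genes. No member passed 1.5-fold in either direction as a gene mean, and the members ran from -0.46 to 0.50 on the log2 scale. The share of all genes past 1.5-fold was not computed.

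**Figure D1:**
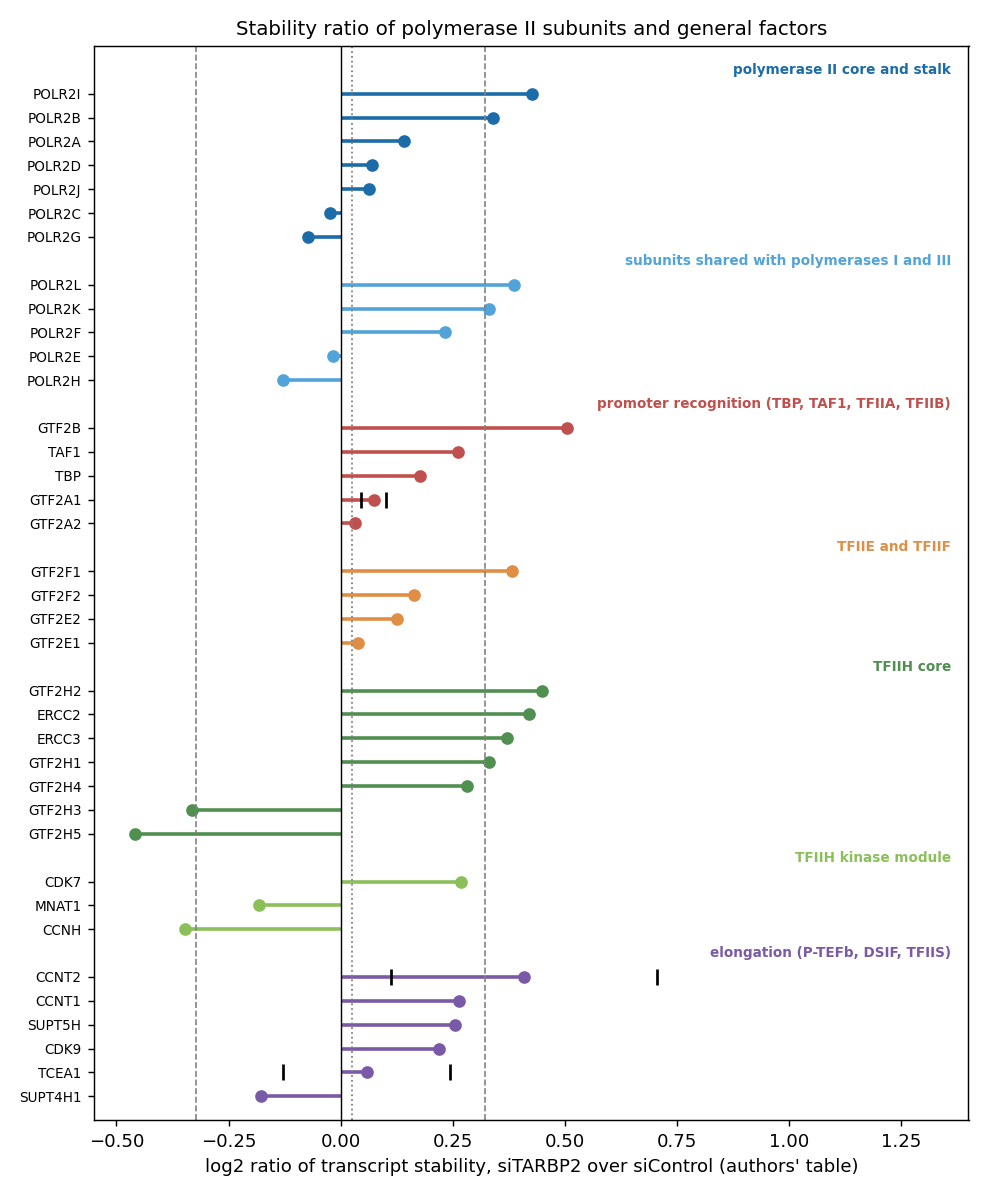
Mean log2 stability ratio (siTARBP2 over siControl, authors' deposited values, x axis) of each of the 37 genes, grouped by role. Circles are gene means, black ticks the single accessions of the genes that have 2, dashed lines 1.25-fold and 0.8-fold, and the dotted line the median of all genes. The 11 genes above the right dashed line lie in 6 of the 7 roles, and the 3 below the left one are all TFIIH genes.

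**Figure D2:**
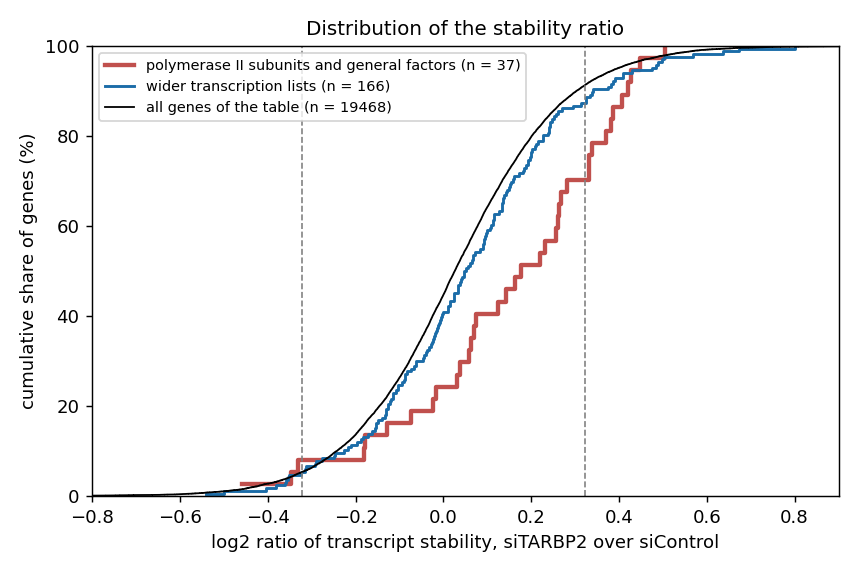
Cumulative share of genes (y axis, %) with a log2 stability ratio up to the value on the x axis, for the 37 members, the 166 measured genes of the wider transcription lists and all 19468 genes of the authors' deposited table. Dashed lines mark 0.8-fold and 1.25-fold. The curve of the members runs to the right of that of all genes through the middle of the range and meets or crosses it at both ends.

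The 12 polymerase subunits had a median of 0.11 on the log2 scale of the authors' deposited table, beside 0.026 for all genes. Of the 12, 4 were above 1.25-fold in the authors' deposited table (POLR2B, POLR2I, POLR2K and POLR2L), beside 8.76% of all genes, and 0 were below 0.8-fold, beside 5.39% of all genes. Once the median of all genes was subtracted, 2 of the 12 were above, without POLR2B and POLR2K. The share of all genes above after this subtraction was not computed. POLR2A, the largest catalytic subunit, whose repetitive tail is phosphorylated during the transcription cycle and which alpha-amanitin binds, had 0.14 on the log2 scale of the authors' deposited table (1.10-fold), higher than 71.3% of all genes. POLR2B, which forms the other side of the active site, stood at 0.34 in the authors' deposited table and was classed as stabilized. The 2 large subunits thus differed by 0.198, and only POLR2B was past the threshold, by a small margin. This difference is no larger than the median of 0.198 between the accessions of genes with exactly 2. POLR2I, a small subunit at the jaw of the enzyme, had the highest value of all subunits in the authors' deposited table, 0.43 (1.34-fold, above 96.0% of genes). Assembly partners in the core and stalk lay near the middle of all genes. POLR2C and POLR2J, which pair to nucleate the enzyme, had -0.025 and 0.063 in the authors' deposited table. POLR2D and POLR2G, which together form the stalk, had 0.070 and -0.073 in the authors' deposited table. POLR2J has near copies (POLR2J2, POLR2J3), so its assignment is uncertain.

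The 5 subunits shared with polymerases I and III had ratios above 0 in 3 cases, against 5 of the 7 specific ones, in the authors' deposited table. Of all genes, 55.3% had a ratio above 0. POLR2L, at 0.39 (1.31-fold), and POLR2K, at 0.33 (1.26-fold), are both classed as stabilized in the authors' deposited table. POLR2F followed at 0.23 in the authors' deposited table (1.17-fold). POLR2E, at -0.017, and POLR2H, at -0.13 (0.914-fold), lay below the median of all genes in the authors' deposited table.

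Among the promoter-recognition factors, all 5 ratios were above 0, where 55.3% of all genes had such a ratio, and GTF2B was the highest. GTF2B encodes TFIIB, which bridges TBP and the polymerase, and its 0.50 in the authors' deposited table (1.42-fold) was the highest of the 37 members, exceeded by 411 of all 19468 genes. TAF1, the largest TFIID subunit, had 0.26 in the authors' deposited table and TBP, the TATA-binding protein, 0.18. The TFIIA subunits were close to the median of all genes, at 0.074 for GTF2A1 and 0.032 for GTF2A2 in the authors' deposited table. GTF2A1 has 2 accessions there, at 0.046 and 0.10, and their difference of 0.055 was small beside the median difference of 0.198 between the accessions of the 2131 genes with exactly 2.

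TFIIF and TFIIE had ratios above 0 for all 4 subunits, where 55.3% of all genes had one. GTF2F1, the large TFIIF subunit, had 0.38 in the authors' deposited table (1.30-fold) and was classed as stabilized, whereas its partner GTF2F2 had 0.16. GTF2E1 and GTF2E2, the TFIIE subunits that recruit and regulate TFIIH, had 0.039 and 0.12 in the authors' deposited table.

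TFIIH held the members farthest apart. Of its 10 genes, 4 were above 1.25-fold in the authors' deposited table, beside 8.76% of all genes, and 3 were below 0.8-fold, beside 5.39%. The SD was 0.363 against 0.223 for all genes. ERCC2 (XPD) and ERCC3 (XPB), the helicase and translocase that also serve nucleotide excision repair, had similar ratios of 0.42 (1.34-fold) and 0.37 (1.29-fold) in the authors' deposited table. GTF2H2, a regulator of ERCC2, had 0.45 in the authors' deposited table (1.36-fold, above 96.7% of genes). GTF2H2 has near-identical copies (GTF2H2B, GTF2H2C), so this value may be shared between them. The scaffold subunit GTF2H1 was just past the threshold at 0.33 in the authors' deposited table (1.26-fold), and GTF2H4, which holds ERCC3, was short of it at 0.28 (1.22-fold). On the other side stood 2 core subunits. GTF2H5, the small subunit mutated in trichothiodystrophy A, had the lowest ratio of the 37 members, -0.46 in the authors' deposited table (0.727-fold, above 1.6% of genes). GTF2H3, a partner of GTF2H2 in the core ring, had -0.33 in the authors' deposited table (0.795-fold). GTF2H5 binds GTF2H4 in the complex, and GTF2H4 exceeded it by 0.742 on the log2 scale of the authors' deposited table.

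In the kinase module of TFIIH none of the 3 genes was above 1.25-fold, where 8.76% of all genes were. Below 0.8-fold was 1 of the 3, where 5.39% of all genes were. CDK7, the kinase that phosphorylates the polymerase tail, had 0.27 in the authors' deposited table (1.20-fold, above 87.2% of genes). Its cyclin, CCNH, had -0.35 in the authors' deposited table (0.786-fold, above 4.3% of genes), and MNAT1, the assembly factor of the module, -0.18 (0.882-fold). CDK7 thus exceeded CCNH by 0.615 and MNAT1 by 0.449 on the log2 scale.

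The elongation factors leaned to ratios above 0, in 5 of 6 genes, where 55.3% of all genes had one. CDK9, the kinase of P-TEFb, had 0.22 in the authors' deposited table and its main cyclin CCNT1 0.26, a difference of -0.044 between kinase and cyclin. The alternative cyclin CCNT2 had a mean of 0.41 in the authors' deposited table (1.33-fold) over accessions of 0.70, classed as stabilized, and 0.11, classed as background. That difference of 0.593 between accessions was larger than the upper quartile of 0.348 for genes with 2 accessions. The place of CCNT2 above 1.25-fold rests on the accession at 0.70. DSIF, the factor that couples pausing to elongation, had its subunits on opposite sides: SUPT5H had 0.26 in the authors' deposited table (1.19-fold) and SUPT4H1 -0.18 (0.884-fold), 0.434 apart. TCEA1, which encodes TFIIS, the factor that restarts backtracked polymerase, had a mean of 0.058 in the authors' deposited table, from accessions of 0.24 and -0.13.

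Partner subunits were close in some pairs and far apart in others. Differences between unrelated genes were not computed, so closeness cannot be read as a trait of the complexes. The median difference between the accessions of genes with exactly 2 was 0.198. Among 12 pairs of partners chosen after the values were seen, the size of the difference within a pair ran from 0.042 for GTF2A1 over GTF2A2 to 0.742 for GTF2H4 over GTF2H5 in the authors' deposited table. Pairs under 0.1 apart in the authors' deposited table were TFIIA, TFIIE, CDK9 with CCNT1, ERCC2 with ERCC3, and POLR2J with POLR2C.

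The wider transcription machinery was taken from 8 lists, with 166 of 172 genes measured. Its median was 0.049 on the log2 scale of the authors' deposited table, with 21 genes (12.7%) above 1.25-fold and 9 (5.42%) below 0.8-fold. Of all genes, 8.76% were above and 5.39% below, so the shares of the wider machinery lay nearer to these than the members' did. The TAFs other than TAF1, which complete TFIID, had a median of 0.095 in the authors' deposited table, with 4 of 13 above and 0 below. TAF7, which binds TAF1, was their highest at 0.64 in the authors' deposited table (1.55-fold), followed by TAF10 at 0.48, TAF5 at 0.41 and TAF15 at 0.34, and TAF13 was lowest at -0.25. TAF15 averages accessions of 0.20 and 0.48 in the authors' deposited table.

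Mediator, the coactivator that connects activators to the polymerase, had a median of -0.017 over 32 subunits in the authors' deposited table. Its 1 gene above (3.12%) and 3 below (9.38%) stand beside 8.76% and 5.39% of all genes. MED18 was above in the authors' deposited table, at 0.34, and MED28 at -0.36, MED9 at -0.35 and CCNC, the cyclin of the Mediator kinase, at -0.32 were below. CCNC is the mean of accessions at -0.27 and -0.38 in the authors' deposited table. Pausing and elongation factors outside the 37 had a median of 0.073 over 30 genes in the authors' deposited table, with 5 above (16.7%) and 2 below (6.67%). LEO1, of the PAF1 complex, was the highest gene of all the lists at 0.80 in the authors' deposited table (1.74-fold). IWS1 at 0.48, AFF1 of the super elongation complex at 0.39, ELL2 at 0.38 and HEXIM1, an inhibitor of P-TEFb, at 0.33 were also above in the authors' deposited table. NELFE, an RNA-binding subunit of the pausing factor NELF, at -0.36 and TCEA3, a TFIIS paralog, at -0.35 were below in the authors' deposited table.

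Factors acting on the polymerase tail and the ends of its transcripts had a median of 0.067 over 28 genes in the authors' deposited table. Of these, 4 (14.3%) were above and 2 (7.14%) below, beside 8.76% and 5.39% of all genes. After the median of all genes was subtracted, 2 were above, and the share of all genes above was not computed for this setting. With each accession of the authors' deposited table counted on its own, the median was 0.0076 and 6 of 34 accessions were below. With the lowest accession of each gene, 4 genes were below. The share of all genes below was not computed for these settings. FIP1L1, of the cleavage and polyadenylation complex, had 0.57 in the authors' deposited table, the phosphatase CTDSP1 0.41, and CPSF7 and PCF11 0.32 each, the last 2 only just past the threshold. CSTF3, at -0.40 over 3 accessions, and the capping enzyme RNGTT, at -0.38, were below in the authors' deposited table. Assembly and import factors of polymerase II had a median of 0.15 over 11 genes in the authors' deposited table, with 2 above and 0 below, SLC7A6OS at 0.49 and RPAP3 at 0.43, and GPN2 lowest at -0.040.

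The other polymerases served as a comparison, since alpha-amanitin leaves polymerase I untouched and inhibits polymerase III less, while the messenger RNAs of their subunits are all made by polymerase II. The counts that follow stand beside 8.76% of all genes above and 5.39% below. Polymerase I subunits and factors had a median of 0.011 over 15 genes in the authors' deposited table, with 3 above (TTF1 at 0.67, POLR1F at 0.50 and POLR1C, shared with polymerase III, at 0.39) and 0 below. POLR1G was lowest there at -0.32, just short of 0.8-fold in the authors' deposited table. Polymerase III subunits and factors had a median of 0.052 over 27 genes in the authors' deposited table, with GTF3C5 above at 0.37, and GTF3C6 at -0.50 and CRCP at -0.54 below. Near copies of the members and similarly named genes had a median of 0.10 over 10 genes in the authors' deposited table, with 1 above, 0 below and GTF2A1L, a TFIIA paralog, lowest at -0.17. The gene above, GTF2IRD1 at 0.50 in the authors' deposited table, is a relative of GTF2I and not a copy of any of the 37. The difference between the 37 members and these lists was not tested, because the table holds 1 value per accession.

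**Figure D3:**
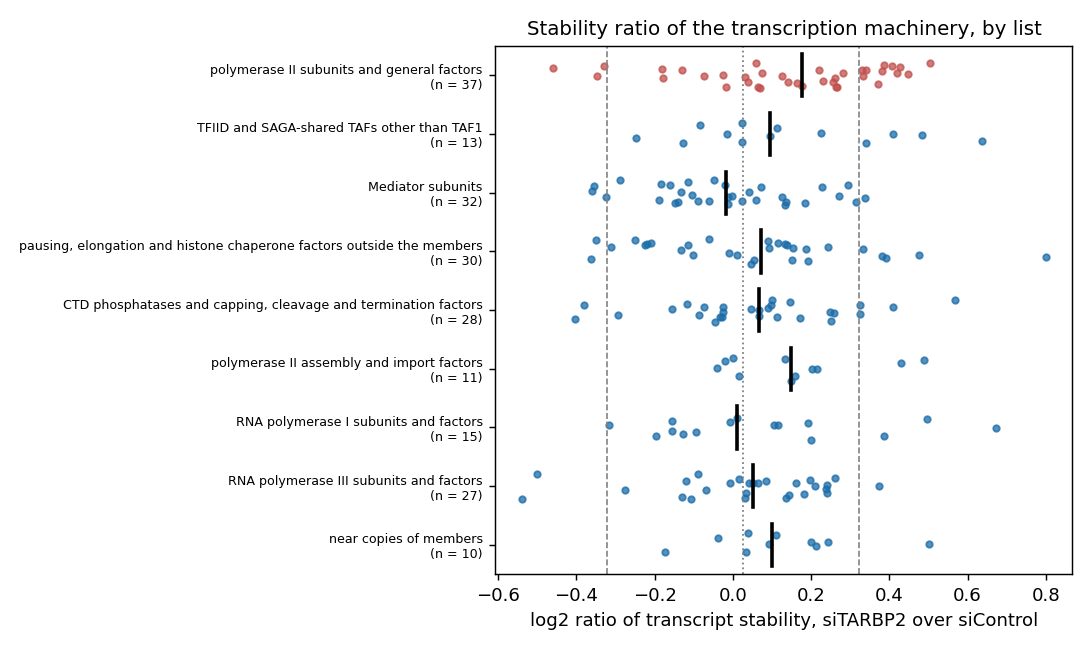
Log2 stability ratio (authors' deposited values, x axis) of the genes of each list (y axis), 1 point per gene, with the 37 polymerase II members at the top. Black bars are medians, dashed lines 0.8-fold and 1.25-fold, and the dotted line the median of all genes; vertical scatter within a row has no meaning. The medians run from -0.017 for Mediator to 0.18 for the members.

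The arrays show how far a ratio of this kind varies between siRNAs, over probes without gene names. Between 15541 and 17619 of 47321 probes were detected per array (detection p under 0.01), and 18664 were detected on at least 2 of the 8. For each of these the 18 h change in control cells was subtracted from that in knock-down cells on the log2 scale of the authors' normalized intensities, once for siTARBP2-1 with siControl-1 and once for siTARBP2-2 with siControl-2. The standard error of the mean of both siRNAs (their absolute difference divided by 2) had a median of 0.0824 over detected probes and 0.13 over the rest. Its root mean square over detected probes was larger, 0.142. By either measure, GTF2H1, POLR2K and POLR2B at 0.33 to 0.34 lie within 1 such error of the 1.25-fold line. GTF2H3 at -0.33 lies as close to the 0.8-fold line. Also within 1 error by either measure are ERCC3 at 0.37, GTF2F1 at 0.38, POLR2L at 0.39 and CCNH at -0.35. CCNT2 at 0.41, ERCC2 at 0.42, POLR2I at 0.43, GTF2H2 at 0.45 and GTF2H5 at -0.46 lie farther than the median error. They remain within the root mean square. Of the members past a line, only GTF2B, at 0.50, lies farther from it than either figure for detected probes. Over the probes not detected the root mean square was 0.196, and GTF2B lies within that. The mean of the siRNAs was above 1.25-fold for 12.4% of detected probes and for 5.50% of the rest, and below 0.8-fold for 10.9% of detected probes and for 1718 of the other 28657. How many members were detected could not be determined, so the shares among detected probes are second figures beside those for all genes, 8.76% above and 5.39% below. The members' 29.7% above is higher than both shares above. Their 8.11% below is higher than the 5.39% of all genes and lower than the 10.9% of detected probes. The array quantity is not the authors' ratio, whose formula no source used here states.

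**Figure D4:**
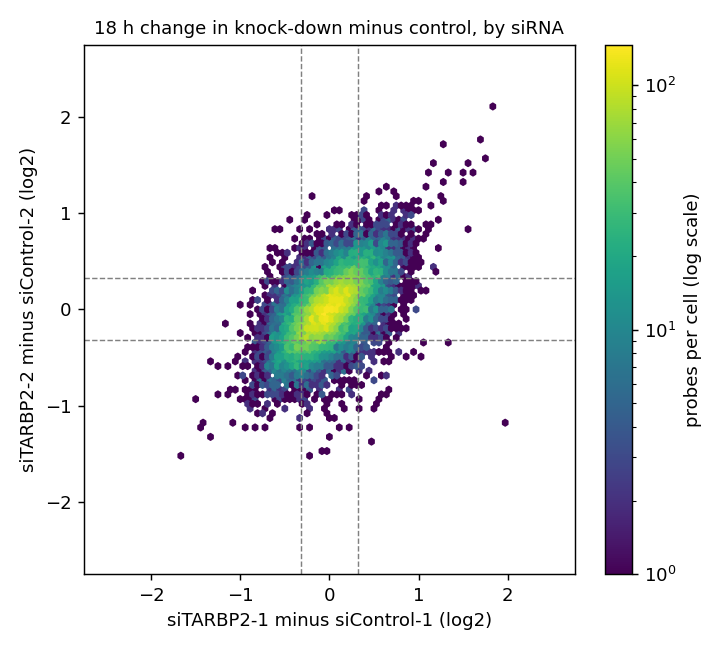
Change over 18 h in siTARBP2 cells minus that in siControl cells (log2), for siTARBP2-1 with siControl-1 (x axis) and siTARBP2-2 with siControl-2 (y axis), over 18664 detected probes. Colour gives the number of probes per cell on a log scale, and dashed lines mark 1.25-fold and 0.8-fold. Both siRNAs were past 1.25-fold for 1313 of the 2309 probes whose mean was.

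The zero of such a ratio depends on scaling. The median signal of the detected probes was 357.0 and 362.2 on the knock-down arrays at 18 h, against 275.5 and 291.4 on the control arrays at 18 h. At 0 h it was 436.4 and 462.6 on the knock-down arrays, against 465.8 and 475.2 on the control arrays, so the groups did not overlap at either time. Without normalization the median array difference was 0.29 on the log2 scale, and with the authors' normalized intensities 0.0059. The members' ratios are therefore read against the median of all genes, 0.026, and not as absolute changes in half-life.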

How the data were processed

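Total RNA of MDA-LM2 cells was hybridised to 8 single-colour Illumina BeadChips in 4 groups of 2, read from the sample titles. One file the authors deposited gives, per accession, a log2 ratio of stability (siTARBP2 to siControl) and a class, per the file headers. Its 1.25-fold threshold was found from the values. The authors also deposited non-normalized probe intensity with a detection p-value per array, and a table of normalized intensity. The submitters' processing notes name lumi without settings. Several formulas applied to the array values failed to return the authors' ratio exactly.

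Of 39745 accessions (version removed), 22411 matched 1 symbol in RefSeq (GRCh38.p14) and stood for 19468 genes. The mean over the accessions of a gene was taken (pandas 2.3.3, numpy 2.4.6). The members and the gene lists were chosen with earlier results of these data known. All members are named, and of each wider list the highest and lowest gene and up to 5 genes past the threshold in each direction. The table has 1 value per accession, so no test was made. The tests planned on the arrays were not run, because no table used here pairs probes with genes. The number of arrays limits the precision. Nothing in the labels says that the control arrays came from separate cultures. Summaries were tested on simulated data. Alternatives were the choice among accessions, the threshold and the centring.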

Additional observations from a re-analysis of the deposited data

How the results depend on the processing

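No paired analysis was possible for the named genes because the authors' ratios have no replicates and the array probes carry no gene names. Over unnamed probes each TARBP2 siRNA was set against the control array of its number, with no test. The planned array fits, with their normalizations, filters, replicate block and left-out arrays, were not run. The members' median of 0.178 (log2, from the authors' deposited table) was 0.219 with the first or the highest accession of each gene, 0.164 with the lowest, 0.171 with each accession on its own and 0.152 after subtracting the median of all genes. With 1.5-fold as the threshold on the authors' deposited table, 0 members were above and 0 below. Their count above 1.25-fold stayed between 8 and 11, and 3 were below, under the alternatives that kept this threshold. The share of all genes past the lines was not computed for the centred values, at 1.5-fold, or with the first, highest, lowest or single accessions. For the wider lists the median of 0.0491 in the authors' deposited table was 0.0440 with the first or the lowest accession, 0.0652 with the highest, 0.0396 with each on its own and 0.0233 after centring. The 9 wider genes below 0.8-fold became 14 with the lowest accession, a choice that can only raise this count. With each accession on its own, 17 of 191 accessions were below. At 1.5-fold, 3 genes were above and 0 below. The polymerase I median of 0.0114 in the authors' deposited table turned to -0.0065 with the first or the lowest accession, -0.0032 with each on its own and -0.0143 after centring, so its sign is not settled. After centring, 2 of 12 polymerase subunits and 0 Mediator subunits were above. Counted by single accessions, 4 polymerase III accessions were below in place of 2 genes. The array alternatives (crossed control arrays, non-normalized signals with quantile or no normalization) were chosen after seeing the data; the typical half-difference between siRNAs was 0.0802 to 0.0982 under them.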
